A study of Mus musculus with 2 samples.

Results

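The genes described here are the cell cycle and replication histone genes of the mouse, chosen by symbol: all histone genes named Hist1h1 to Hist1h4 together with a fixed set of replication, cyclin, kinase and spindle genes. There were 85 such genes among the 32285 genes of the files, 54 of them Hist1h genes and 31 others. They were followed in 2 droplet libraries of single immune cells taken from the gingiva of C57BL/6 mice, in a study of experimental periodontitis. The first library came from wild-type (WT) mice and the second from mice labelled Otud1-/-. OTUD1 is a deubiquitinase, an enzyme that takes ubiquitin off other proteins. Cells were captured in droplets with the 10x Genomics 3′ kit, version 3.1, in which the 3′ end of each message receives a barcode for its cell and a molecular tag (UMI) by which copies are counted once. Not given in the sources used here are the number of mice pooled, their age and sex, the treatment of each group and the deleted stretch of Otud1. With 1 library per genotype there was no replicate and no test was run, so that genotype, animals and library cannot be told apart.

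A dividing cell copies its DNA in S phase and separates the copies in mitosis. The MCM proteins unwind DNA at replication origins, PCNA clamps the polymerase to its template, and the ribonucleotide reductase subunits RRM1 and RRM2 and the thymidylate synthase TYMS supply the building blocks. Replication histones package the new DNA. Their genes lie in clusters, most lack introns, and their messages end in a short stem-loop in place of a poly(A) tail. In a germinal centre, B cells that have met antigen divide fast, whereas mature neutrophils no longer divide.

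The WT library held 44878537 UMIs over 13267 barcodes and the library labelled Otud1-/- held 44083735 over 8109. Filters kept 11414 cells of the WT library, with a median of 2305 UMIs, and 6486 cells of the library labelled Otud1-/-, with a median of 4170.5 UMIs. The libraries shared 37 barcodes, or 0.279% and 0.456% of their barcodes. A limit on mitochondrial UMIs removed 3.52% of WT barcodes and 13.2% of the others. Otud1 itself went against the label: it was at 18.5 CPM (17.1 to 19.9) in WT cells and at 33.0 CPM (31.2 to 34.9) in the library labelled Otud1-/-, where CPM is the UMI count scaled to a common total per group of cells. The labels do not say which part of the gene was deleted, so these counts do not check them, and every direction below rests on the labels. All ranges in parentheses are exact 95% intervals and cover counting error only.

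The 3′ ends of the histone messages are shown first, since the assay reads the 3′ ends of messages with a poly(A) tail. The 54 Hist1h genes lie on chromosome 13 between positions 21715763 and 23934851 (GRCm38), and 49 have a single exon in GENCODE M21. The 16-base histone stem-loop motif was searched on the sense strand of the annotated transcripts. It was in 37 of the 54 genes, against 136 of 21901 protein-coding genes (0.621%). The 6 runs below belong to abundant members, with the stem-loop in capitals and 5 flanking bases on each side where the annotated transcript reaches that far.
Hist1h1c, chr13:23739507-23739532, plus strand: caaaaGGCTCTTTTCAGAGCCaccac
Hist1h1e, chr13:23621777-23621802, minus strand: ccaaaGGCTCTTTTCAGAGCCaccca
Hist1h4d, chr13:23581945-23581970, plus strand: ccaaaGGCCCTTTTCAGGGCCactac
Hist1h3c, chr13:23745042-23745067, minus strand: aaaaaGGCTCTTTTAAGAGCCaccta
Hist1h2ae, chr13:23570663-23570688, minus strand: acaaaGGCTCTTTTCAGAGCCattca
Hist1h2ap, chr13:21833026-21833049, minus strand: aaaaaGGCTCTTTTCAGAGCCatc
The annotated transcript of Hist1h2ap ends 3 bases after the loop, that of Hist1h3c 74 bases after it and that of Hist1h2ae 151 bases after it. Those of Hist1h4d, Hist1h1c and Hist1h1e run on for 770, 840 and 1153 bases. The poly(A) signal AATAAA was found downstream of the loop in 9 genes, among them Hist1h1c and Hist1h2ae. The transcript of Hist1h2bc, which has 2 exons, held no match, and neither did that of Hist1h1b. Only annotated bases were searched, so a missing match does not show that a gene lacks the loop. The transcript of Hist1h2bl, without a match, is 381 bases long, whereas the loop of Hist1h2bf starts at base 417. At least 1 stretch of 90 bases was shared with another gene in 50 of the 54 genes and over 50% of the stretches in 22, so counts of near-identical histone copies are uncertain. Of the genes shown, Hist1h2ap shared 92.4% of its stretches, Hist1h2ae 31.9%, Hist1h3c 31.6%, Hist1h1e 26.2%, Hist1h1c 5.71% and Hist1h4d 0.858%. Hist1h1e also overlaps Hist1h2be on the same strand.

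Short motifs known from cell cycle promoters were counted in the promoters of the members. The 250 bases before the start site were taken from RefSeq (GRCm38.p6) and both strands were searched. CCAAT, the letters bound by the factor NF-Y, was in 11 of 12 promoters of the mitotic set matched (91.7%), in 10 of 12 of the S set (83.3%) and in 43 of 51 of the Hist1h genes (84.3%), against 33.8% of all 32851 promoters. TTTGAA, the core of the cell cycle homology region, was in 5 mitotic-set promoters (41.7%), 1 S-set promoter (8.33%) and 23 Hist1h promoters (45.1%), against 15.99% of all. TTTCGCGC or TTTGGCGC, forms of the E2F motif, were in 1 mitotic-set promoter (8.33%), 2 S-set promoters (16.7%) and 7 Hist1h promoters (13.7%), against 0.654%. TATAAA was in 26 Hist1h promoters (51.0%) and in 0 of the mitotic and S sets, against 12.4%. These are matches of letters and not measured binding sites. The runs below show 1 promoter of each kind, with the motif in capitals: TTTGAA in Cdk1, TTTGGCGC in Mcm6 and TATAAA in the histone genes Hist1h1b and Hist1h4d.
Cdk1, chr10:69352958-69353003, minus strand: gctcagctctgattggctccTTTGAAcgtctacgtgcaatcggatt
Mcm6, chr1:128359725-128359772, minus strand: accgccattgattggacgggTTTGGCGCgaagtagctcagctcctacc
Hist1h1b, chr13:21780628-21780673, minus strand: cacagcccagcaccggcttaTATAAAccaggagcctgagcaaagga
Hist1h4d, chr13:23581516-23581561, plus strand: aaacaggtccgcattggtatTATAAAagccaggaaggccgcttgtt

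Of the 85 genes, 81 had at least 1 UMI in the kept cells of each library. The testis cyclin Ccna1 and the histones Hist1h2aa, Hist1h2ba and Hist1h2bq were at 0 in both, which allows up to 3 UMIs per library. The linker histone Hist1h1b was the most abundant in WT cells, at 230.5 CPM, and stood at 201.8 CPM in the library labelled Otud1-/-. The linker histone Hist1h1e (198.7 and 202.3 CPM) came close to it. The core histones Hist1h2ap (131.4 and 154.7 CPM), Hist1h4d (139.1 and 76.7 CPM) and Hist1h2ae (114.6 and 94.2 CPM) and the linker histone Hist1h1c (110.3 and 121.3 CPM) made up a lower group. Hist1h2bc (37.0 and 57.4 CPM), Hist1h3e (50.1 and 41.4 CPM), Hist1h3c (45.9 and 28.1 CPM) and Hist1h4h (45.0 and 28.5 CPM) completed the 10 highest. These 10 genes held 77.9% of all Hist1h UMIs in WT cells and 80.0% in the other library. The reads come from the 3′ end, so a CPM value does not depend on the length of the gene.

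Among the replication genes, the clamp Pcna was highest, with 159.3 CPM in WT cells and 142.5 CPM in the library labelled Otud1-/-, followed by its binding partner Pclaf (138.6 and 96.1 CPM). The helicase subunits ranged from Mcm6 (58.9 and 51.3 CPM) through Mcm3 (52.1 and 47.9 CPM), Mcm7 (44.2 and 35.2 CPM), Mcm4 (42.4 and 37.7 CPM) and Mcm5 (38.4 and 29.9 CPM) to Mcm2 (24.3 and 19.2 CPM). The nucleotide enzymes Rrm1 (41.6 and 31.8 CPM), Rrm2 (33.3 and 20.1 CPM) and Tyms (19.97 and 13.3 CPM) spanned much of the same range. The cyclins of entry into S phase, Ccne2 (10.4 and 6.30 CPM) and Ccne1 (6.22 and 4.72 CPM), were rare. All of these were lower in the library labelled Otud1-/-, by sizes taken up below.

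Of the mitotic genes, the DNA-untangling enzyme Top2a (119.1 and 72.2 CPM), the proliferation marker Mki67 (116.0 and 79.1 CPM) and the centromeric histone Cenpa (111.0 and 102.9 CPM) were highest. The ubiquitin-conjugating enzyme Ube2c (44.5 and 29.8 CPM), the survivin gene Birc5 (44.4 and 30.1 CPM), the kinetochore genes Cenpf (34.4 and 21.5 CPM) and Cenpe (28.1 and 21.8 CPM) and the cohesin acetyltransferase Esco2 (23.1 and 18.9 CPM) came next. The cyclins Ccnb2 (21.6 and 14.6 CPM), Ccna2 (19.1 and 13.7 CPM) and Ccnb1 (14.03 and 8.995 CPM), their kinase Cdk1 (20.2 and 13.9 CPM) and the kinase Aurkb (13.5 and 10.2 CPM) were low. The kinases Pbk (5.62 and 4.14 CPM), Plk1 (5.55 and 3.27 CPM) and Aurka (4.84 and 4.51 CPM) were the lowest. The microtubule regulator Stmn1 stood at 199.9 and 160.7 CPM.

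The lineages were taken from clusters made without any of these genes and without other cell cycle genes, and each cluster was named only as far as fixed markers allowed. A single cluster, with 984 cells from the WT library and 339 from the other, was germinal centre B-like. Its marker Nuggc, a gene of germinal centre B cells, was at 140.1 CPM there against 5.11 CPM in WT B-like cells, and at 125.4 against 0.605 CPM in the library labelled Otud1-/-. Ighd, a gene of resting B cells, ran the other way, at 68.2 against 570.2 CPM in WT cells and 48.6 against 628.2 CPM in the other library.

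The germinal centre B-like cells carried most of these genes at their highest level in both libraries. Among WT cells, 32 of the 34 members that reached the minimum level were higher there than in any of the other 10 classes of at least 100 cells. Over all 5557 genes that share was 23.3%. In the library labelled Otud1-/-, 30 of 31 members were highest there among 7 classes, and 28.6% of all genes were. For Hist1h1b the level was 1095 CPM (1063 to 1128) in WT germinal centre B-like cells and 1395 CPM (1356 to 1436) in the other library, against 59.5 and 49.5 CPM in B-like cells. Pclaf stood at 703.9 against 28.6 CPM in WT cells and at 731.6 against 10.7 CPM in the other library. Stmn1 (876.9 and 1005 CPM), Mki67 (509.3 and 449.6 CPM) and Top2a (545.2 and 449.0 CPM) were the other non-histone genes above 400 CPM there. The class held 39.4% of all member UMIs of the WT cells and 43.8% of those of the library labelled Otud1-/-.

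**Figure D1:**
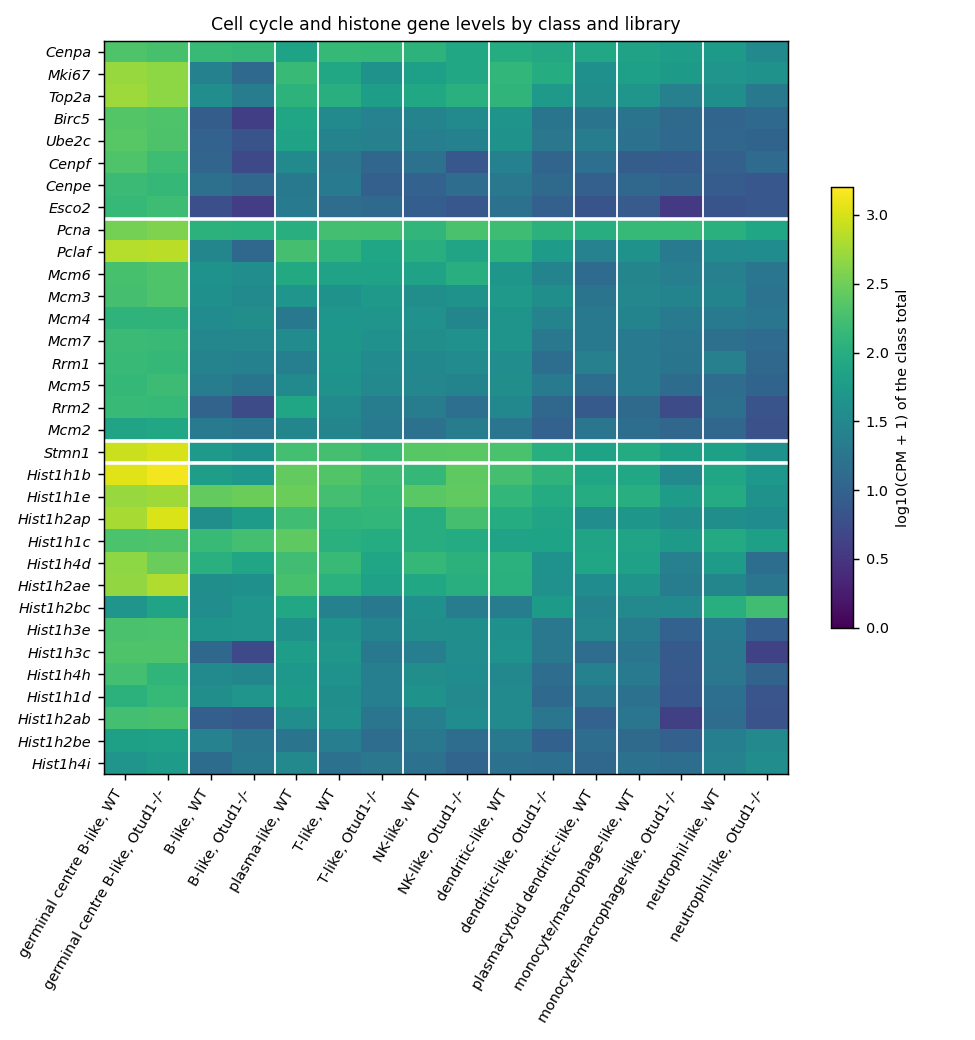
Level of each member with a mean of at least 20 CPM over the kept cells, as log10(CPM + 1) of the class total (colour), by class and library (columns, classes with at least 100 cells). From top to bottom the white lines part the mitotic set, the S set, Stmn1 and the Hist1h genes; the 2 germinal centre B-like columns are the brightest for all but a few rows such as Hist1h2bc.

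The exceptions were histone genes. Hist1h2bc was highest in neutrophil-like cells, at 103.2 CPM against 45.5 CPM in germinal centre B-like cells of the WT library, and at 162.6 against 72.4 CPM in the library labelled Otud1-/-. Hist1h1c was highest in WT plasma-like cells, at 250.4 against 196.8 CPM. Hist1h2bc is the abundant member whose 2-exon transcript held no match to the stem-loop, and Hist1h1c is one with AATAAA downstream of its loop. Hist1h1b, whose annotated transcript held no match either, was highest in germinal centre B-like cells. So was Hist1h2ae, which also has AATAAA downstream of its loop. As given above, a missing match does not show that the loop is absent.

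To find dividing cells in each lineage, every cell was thinned to 1000 UMIs, and cells below that depth (1148 in WT and 289 in the other library) were left out. The mitotic set of 16 genes also holds cyclins and kinases of S and G2 phase, such as Ccna2. The name mitotic therefore does not place a cell in mitosis itself. A cell was called mitotic if it held at least 3 of these 16 genes after thinning. There were 522 such cells among 10266 WT cells, or 5.08% (4.67 to 5.53), and 112 among 6197, or 1.81% (1.49 to 2.17), in the library labelled Otud1-/-. Without thinning, the shares were 10.8% and 5.61%. Germinal centre B-like cells made up 305 of the 522 WT mitotic cells (58.4%, 54.1 to 62.7) and 82 of the 112 others (73.2%, 64.0 to 81.1), although they were 8.98% and 5.12% of the thinned cells. With B-like and plasma-like cells added, the B lineage held 68.8% and 78.6%. When each cell was instead named from its own markers, the germinal centre share was 10.7% and 33.0% and the B lineage share 78.4% and 82.1%. The B lineage held most mitotic cells under both ways of naming, while the split inside it depended on the naming.

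Within the germinal centre B-like class, 33.1% (30.05 to 36.2) of WT cells and 25.9% (21.1 to 31.1) of cells labelled Otud1-/- were mitotic. T-like cells were at 4.10% (3.22 to 5.15) and 1.43% (0.716 to 2.55), with 71 and 11 cells. Within that class, the cluster led by Tnfrsf4 and Ctla4, genes of activated and regulatory T cells, held 55 of the 71 WT cells and 9 of the 11 others. Inside this cluster the shares were 6.78% (5.15 to 8.74) and 4.11% (1.90 to 7.66), intervals that overlap. Plasma-like cells were at 7.42% (4.76 to 10.9) and 2.78% (0.338 to 9.68), and dendritic-like cells at 3.56% (2.52 to 4.87) and 0.543% (0.0659 to 1.95), with 37 and 2 cells. B-like cells were at 1.63% (1.11 to 2.30) and 0.143% (0.0390 to 0.366).

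Neutrophil-like cells served as the background. They were at 1.04% (0.477 to 1.97) of WT cells and 0.114% (0.00289 to 0.634) of the others, with median depths of 1688 and 2690 UMIs. The class was not purely mature: 119 WT cells and 17 others were in a cluster led by Ngp and Camp, genes of neutrophil precursors. Of its 115 and 17 thinned cells 0 were mitotic. Monocyte/macrophage-like cells (1.15% and 0.569%) and NK-like cells (1.07% and 1.38%) had intervals that met the neutrophil one in both libraries, and so did B-like cells. In the library labelled Otud1-/- those of dendritic-like and plasma-like cells met it too. Intervals that meet do not show equal shares. Whether the mitotic cells of these classes stood above background in those libraries was not tested. Outside the B lineage Cd79a, a B cell gene, stands here for free RNA. Among T-like, NK-like, dendritic-like, monocyte/macrophage-like and neutrophil-like cells it was higher in the WT library. In plasmacytoid dendritic-like cells it was not, at 319.4 CPM in WT and 331.5 CPM in the other library. It was at 419.5 CPM in WT neutrophil-like cells and 122.3 CPM in the others, and at 527.1 and 315.4 CPM in T-like cells. Its part in the shares outside the B lineage was not tested.

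**Figure D2:**
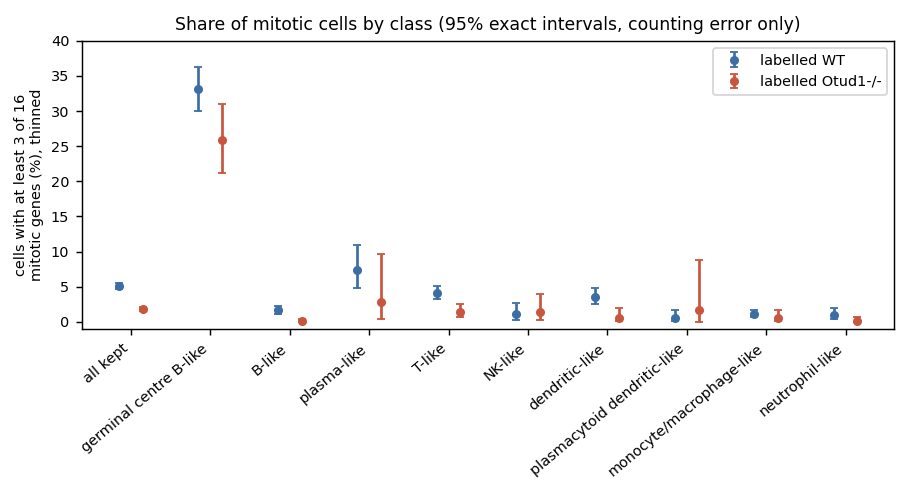
Share of cells with at least 3 of 16 mitotic genes after thinning to 1000 UMIs (y axis, percent) by class and library, with exact 95% intervals that cover counting error only. Germinal centre B-like cells stand at 33.1% and 25.9%, and no other class shown exceeds 7.42%.

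Cells with S-phase genes were counted in the same way. At least 3 of the 13 S-set genes were found in 4.61% (4.21 to 5.03) of WT cells and 2.02% (1.68 to 2.399) of cells labelled Otud1-/-. Of the 473 WT cells, 242 were germinal centre B-like, 87 T-like and 34 B-like, and of the 125 others 75, 11 and 20. In the library labelled Otud1-/- B-like cells were 20 of these 125 cells (10.1% to 23.6%). They were a smaller part of its mitotic cells (3.57%, 0.982 to 8.89). The S share of B-like cells was 1.78% (1.24 to 2.49) in WT and 0.715% (0.437 to 1.103) in the other library. In neutrophil-like cells, the background, it was 0.694% (0.255 to 1.504) and 0.228% (0.0276 to 0.821). These intervals met in both libraries, which does not show that the shares are equal. Whether the B-like cells counted here stood above background was not tested. In the germinal centre B-like class the S share was 26.2% (23.4 to 29.2) and 23.7% (19.1 to 28.7), intervals that overlap.

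The mitotic share was higher in the deepest cells than in the rest in both libraries, with the wider gap in the library labelled Otud1-/-. The limits of depth used here were chosen after the data were seen. Among cells of at least 10000 UMIs, 10.1% (7.55 to 13.1) of 486 WT cells and 9.91% (8.01 to 12.1) of 878 cells labelled Otud1-/- were mitotic. Below 10000 UMIs the shares were 4.84% (4.42 to 5.28) and 0.470% (0.304 to 0.693). Taken over all classes together, the groups therefore overlap in the deep cells and part in the shallow ones. Outside the germinal centre B-like class, 5.71% (3.70 to 8.38) of 420 deep WT cells and 2.83% (1.76 to 4.29) of 743 others were mitotic. Mitotic cells had a median of 14796 UMIs against 4280 for other cells in the library labelled Otud1-/-, and 2733.5 against 2547.5 in the WT library. All cells had been thinned to the same 1000 UMIs before the call.

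Inside the germinal centre B-like class the share moved with depth in the library labelled Otud1-/-, while the WT intervals overlapped throughout. WT cells of this class were mitotic at 34.2% (28.5 to 40.2) between 1000 and 2000 UMIs, at 31.1% (23.1 to 40.2) between 4000 and 6000 and at 32.6% (19.5 to 48.0) between 10000 and 20000. In the library labelled Otud1-/-, 4 of 15 were mitotic between 1000 and 2000 UMIs (26.7%, 7.79 to 55.1) and 2 of 27 between 2000 and 4000 (7.41%, 0.910 to 24.3). Between 4000 and 6000 UMIs 0 of 45 were, which allows up to 6.67%. Between 6000 and 10000 UMIs 10.5% (5.16 to 18.5) were, and between 10000 and 20000 UMIs 47.2% (37.4 to 57.1). The summed Hist1h level in the library labelled Otud1-/- was at 3629, 3618, 750.5, 2266 and 7811 CPM in these 5 bins from shallow to deep, and at 5212, 4738, 3302, 3526 and 6523 CPM in WT. In both libraries it was lowest between 4000 and 6000 UMIs, but below 20000 UMIs it did not follow the order of the mitotic share in every bin. Over all cells of this class at 10000 UMIs or more, 37.9% (26.2 to 50.7) of 66 WT cells and 48.9% (40.2 to 57.6) of 135 others were mitotic. Below that depth the shares were 32.7% (29.6 to 36.0) and 8.79% (5.11 to 13.9).

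**Figure D3:**
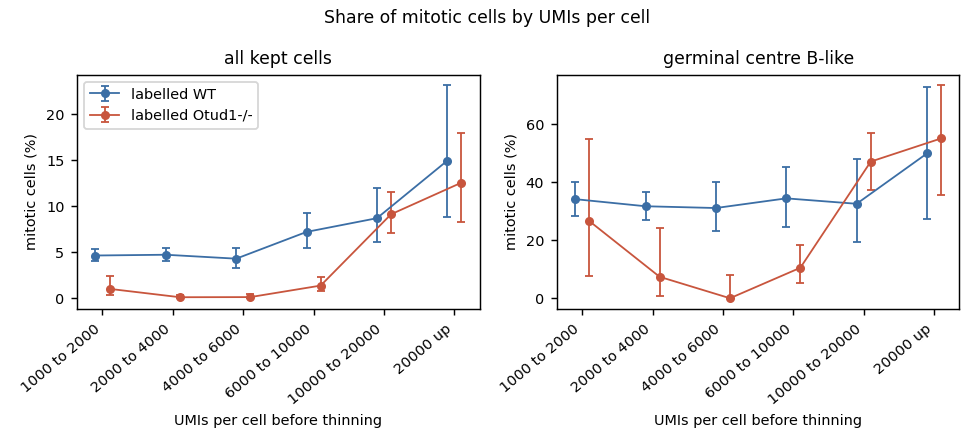
Share of mitotic cells (y axis, percent) by UMIs per cell before thinning (x axis) for all kept cells and for germinal centre B-like cells, with exact 95% intervals. In germinal centre B-like cells labelled Otud1-/- the share is lowest, 0 of 45, between 4000 and 6000 UMIs and 47.2% between 10000 and 20000, while the WT values lie between 31.1% and 34.5% below 20000 UMIs.

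The WT library held cells of both sexes, so it was pooled from more than a single animal, and the split that follows was chosen after the data were seen. Y-linked and no Xist UMIs were found in 2622 WT cells and Xist and no Y-linked UMIs in 3003, against 4083 and 3 in the library labelled Otud1-/-. Among thinned WT cells the mitotic share was 4.12% (3.37 to 4.98) in the first kind and 5.63% (4.80 to 6.55) in the second, and in the library labelled Otud1-/- it was 2.24% (1.81 to 2.75) in the first kind. In germinal centre B-like cells the shares were 30.04% (24.1 to 36.5) and 32.3% (26.7 to 38.4) for WT and 26.4% (20.9 to 32.5) for the other library, so all 3 intervals overlap. In T-like WT cells the 2 kinds differed more, at 1.77% (0.714 to 3.61) and 4.79% (3.15 to 6.94), and cells labelled Otud1-/- with Y-linked UMIs were at 2.10% (1.05 to 3.72).

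Over all kept cells the members were lower in the library labelled Otud1-/-. The summed mitotic set was at 625.2 CPM in WT cells and 449.6 CPM in the other library, a ratio of 0.719 (0.705 to 0.734). For the S set the levels were 669.6 and 536.0 CPM (ratio 0.8005, 0.786 to 0.815), and for the Hist1h genes 1415 and 1259 CPM (0.890, 0.879 to 0.901). Of the 33 members compared (mean of at least 20 CPM and at least 20 UMIs in the higher library), 7 were lower by at least 1.5-fold, against 1.8% of all 5512 genes compared. Only 1, Hist1h2bc, was higher by as much, against 2.83% of all genes. The median log2 ratio was -0.31 over the members and -0.02 over all genes. By histone class the sums ranged from H4 (0.631, 0.611 to 0.653) and H3 (0.762, 0.732 to 0.793) to H2A (0.934), H1 (0.968) and H2B (1.03, 0.993 to 1.08). The lowest single ratios were those of Hist1h4d (0.552, 0.527 to 0.577), Rrm2 (0.604, 0.551 to 0.661) and Top2a (0.606, 0.578 to 0.636). The highest were those of Hist1h2bc (1.55, 1.45 to 1.66), Hist1h4i (1.22, 1.10 to 1.35) and Hist1h2ap (1.18, 1.13 to 1.22). These sums also carry the cell makeup: with the WT makeup given to both libraries, 2 of the members were at least 1.5-fold lower and 0 higher.

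Over the whole germinal centre B-like class the sums differed less than over all cells for the mitotic set. The mitotic set stood at 2738 and 2457 CPM (ratio 0.897, 0.872 to 0.923), the S set at 2287 and 2409 CPM (1.05, 1.02 to 1.08) and the Hist1h genes at 5104 and 5970 CPM (1.17, 1.15 to 1.19). Of 57 members compared, 2 were at least 1.5-fold higher and 2 lower, against 1.52% and 3.32% of 5248 genes, and the median log2 ratio was 0.07 beside 0.02 for all genes. These sums weigh deep cells most. Below 10000 UMIs the mitotic set was at 2515 and 945.2 CPM and the Hist1h genes at 4206 and 2072 CPM, and at 10000 or more at 3276 and 3168 CPM and at 7136 and 7822 CPM. With cell cycle genes used in the clustering, the median was -0.49, with 15 members lower and 0 higher. Hist1h2ap was at 599.9 CPM in WT and 1033 CPM in the other library (1.72, 1.63 to 1.82) and Hist1h2bc at 45.5 and 72.4 CPM (1.59, 1.31 to 1.94). Plk1, a kinase of mitotic entry, was at 32.2 and 20.8 CPM (0.644, 0.475 to 0.868) and Hist1h4d at 456.8 and 297.4 CPM (0.651, 0.602 to 0.704). Hist1h4c (0.691, 0.545 to 0.872) and Hist1h2ak (1.47, 1.14 to 1.90) lay just inside the limit. The histone classes differed, with H2A at 1.43 (1.38 to 1.48), H1 at 1.19 (1.16 to 1.23) and H4 at 0.712 (0.672 to 0.755). Most reads of Hist1h2ap could come from its near copies, as given above.

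In dendritic-like cells most members were lower. The mitotic set was at 596.8 CPM in WT and 331.3 CPM in the library labelled Otud1-/- (0.555, 0.520 to 0.592), the S set at 626.3 and 349.9 CPM (0.559, 0.524 to 0.595) and the Hist1h genes at 1075 and 684.6 CPM (0.637, 0.608 to 0.667). Of 27 members compared, 18 were at least 1.5-fold lower and 1 higher, against 7.44% and 2.91% of 5011 genes, with a median log2 ratio of -0.90 beside -0.07. Hist1h1d was at 32.5 and 11.4 CPM (0.351, 0.247 to 0.489), Rrm2 at 30.6 and 11.2 CPM (0.365, 0.256 to 0.512) and Rrm1 at 35.7 and 13.3 CPM (0.374, 0.271 to 0.510). Cenpa (0.873, 0.756 to 1.01) and Hist1h1c (1.03, 0.877 to 1.21) had intervals that include no difference, and Hist1h2bc was higher (21.2 and 54.6 CPM, 2.57, 2.02 to 3.28). Below 10000 UMIs the mitotic set was at 526.3 and 217.5 CPM, and at 10000 or more at 736.7 and 375.3 CPM. The Hist1h genes were at 930.1 and 303.5 CPM below that depth and at 1368 and 837.4 CPM from it on. From that depth on 5 of 95 WT cells (5.26%, 1.73 to 11.9) and 1 of 188 others (0.532%, 0.0135 to 2.93) were mitotic. Over the whole class Cd79a was at 290.1 and 159.3 CPM, and its part in the result was not tested.

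In T-like cells the mitotic set was at 497.0 and 369.1 CPM (0.742, 0.699 to 0.789), the S set at 693.0 and 590.4 CPM (0.852, 0.811 to 0.895) and the Hist1h genes at 1343 and 946.1 CPM (0.704, 0.678 to 0.731). Below 10000 UMIs the mitotic set was at 388.8 and 181.01 CPM and the Hist1h genes at 1092 and 388.9 CPM. At 10000 UMIs or more the order turned, with 1055 and 1127 CPM and with 2659 and 3197 CPM. The mitotic share was 3.62% (2.77 to 4.63) and 0.4196% (0.0866 to 1.22) below that depth. From that depth on it was 15.5% (7.996 to 26.03) of 71 WT cells and 14.8% (6.62 to 27.1) of 54 others. Of 29 members compared, 10 were at least 1.5-fold lower and 0 higher, against 5.07% and 0.753% of 5309 genes, and the median log2 ratio was -0.42 beside -0.04. Hist1h3c (48.3 and 18.4 CPM, 0.382, 0.295 to 0.489), Hist1h2ab (39.4 and 17.3 CPM, 0.438, 0.334 to 0.569) and Hist1h4d (144.7 and 74.9 CPM, 0.518, 0.455 to 0.588) were the lowest. Mcm3 (1.17, 0.979 to 1.40), Hist1h2ap (1.07, 0.962 to 1.20) and Mcm6 (0.995, 0.855 to 1.16) were the highest, each with an interval that includes no difference. Different clusters made up the class: 878 of 1894 WT cells were in the cluster led by Tnfrsf4 and Ctla4, and 461 of 793 of the others in that led by Dapl1 and Lef1, genes of resting T cells. The order also turned in T-like cells with Y-linked and no Xist UMIs, a split chosen after the data were seen. There the mitotic set was at 373.9 CPM in WT and 447.4 CPM in the other library, and the Hist1h genes at 921.7 and 1137 CPM.

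In B-like and NK-like cells the median member was near even, although the mitotic set was lower in B-like cells labelled Otud1-/-. In B-like cells 1 of 20 members compared was at least 1.5-fold higher and 1 lower, against 0.641% and 1.92% of 5151 genes, with a median log2 ratio of -0.07 beside -0.03. These were Hist1h2ap (37.0 and 56.3 CPM, 1.52, 1.31 to 1.77) and Top2a (36.4 and 21.8 CPM, 0.598, 0.498 to 0.718). Hist1h2bc (1.30, 1.11 to 1.53) and Hist1h1c (1.24, 1.15 to 1.34) were higher, and Hist1h2be (0.690, 0.557 to 0.857) and Hist1h4d (0.741, 0.670 to 0.821) lower, by less than 1.5-fold. The summed mitotic set was at 273.9 and 211.1 CPM, a ratio of 0.771 (0.724 to 0.820). Of the WT B-like cells 1290 of 2143 were in the cluster led by Ighd and Scd1, and of the others 1646 of 2892 in that led by Fcer2a and Ccr6. In NK-like cells 4 of 27 were at least 1.5-fold higher and 1 lower, against 5.95% and 9.95% of 5164 genes, and the median was 0.09 beside 0.00 for all genes at this rounding. Hist1h1b (134.9 and 253.0 CPM, 1.88, 1.52 to 2.33), Hist1h2ap (97.4 and 178.4 CPM, 1.83, 1.43 to 2.36) and Hist1h3c (22.3 and 36.4 CPM, 1.63, 0.947 to 2.88) were highest there. Hist1h2bc (0.529, 0.302 to 0.909), Mcm4 (0.696, 0.421 to 1.14) and Cenpa (0.710, 0.533 to 0.943) were the lowest.

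In the myeloid classes the median member was lower in the library labelled Otud1-/-, by an amount that depended on the scaling in neutrophil-like cells. Monocyte/macrophage-like cells had 6 of 16 members at least 1.5-fold lower and 0 higher, against 3.75% and 4.43% of 5328 genes, with a median log2 ratio of -0.42 beside 0.03. Hist1h4d (67.6 and 23.6 CPM, 0.348, 0.289 to 0.418), Hist1h1b (83.1 and 32.4 CPM, 0.389, 0.332 to 0.455) and Pclaf (43.3 and 19.8 CPM, 0.457, 0.370 to 0.561) were the lowest, while Pcna (1.01, 0.923 to 1.10), Hist1h2bc (1.06, 0.880 to 1.28) and Mcm3 (0.925, 0.757 to 1.13) were near even. The makeup of the class differed: the cluster led by Vcan and F10 held 692 of 2169 WT cells and 264 of 555 of the others, and that led by Pf4 and Ccl7 held 550 and 83. In neutrophil-like cells 8 of 17 were at least 1.5-fold lower and 1 higher, against 25.3% and 12.5% of 4482 genes, and the median was -0.49 beside -0.17. Scaled by median of ratios the median was -0.0356, and over the alternatives 2 to 16 members were lower. Hist1h4d (56.4 and 13.4 CPM, 0.238, 0.171 to 0.327), Hist1h1e (92.9 and 41.3 CPM, 0.444, 0.362 to 0.544) and Top2a (38.6 and 18.9 CPM, 0.491, 0.359 to 0.671) were the lowest. Hist1h2bc (103.2 and 162.6 CPM, 1.58, 1.36 to 1.83), Hist1h4i (1.41, 1.04 to 1.94) and Hist1h2be (1.35, 0.983 to 1.88) were the highest. Most WT neutrophil-like cells (619 of 1033) were in the cluster led by Retnlg and Mmp9 and most of the others (849 of 942) in that led by Stfa2l1 and Cxcr2. Here too Cd79a was lower, at 338.4 and 227.6 CPM in monocyte/macrophage-like and 419.5 and 122.3 CPM in neutrophil-like cells, and its part was not tested.

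**Figure D4:**
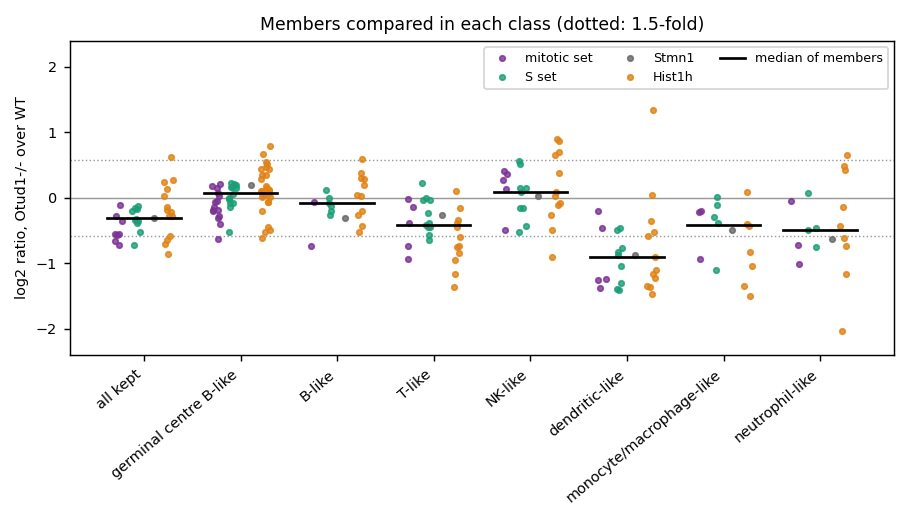
Log2 ratio of CPM, library labelled Otud1-/- over WT (y axis), of each member compared in each class, coloured by set, with the median of the members as a bar and dotted lines at 1.5-fold. The bar lies at 0.07 in germinal centre B-like cells and at -0.90 in dendritic-like cells.

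The members that had not been used to call mitotic cells differed in the share of their UMIs that lay in such cells. Of all S-set UMIs in thinned cells, 19.2% (18.2 to 20.2) lay in the 522 WT mitotic cells and 14.7% (13.3 to 16.2) in the 112 of the other library. For the Hist1h genes the shares were 28.3% (27.5 to 29.1) and 19.3% (18.3 to 20.3). Hist1h3c (42.7% and 63.3%), Hist1h1b (37.3% and 43.8%), Hist1h2ap (36.8% and 40.04%), Hist1h2ae (36.8% and 37.7%), Pclaf (34.0% and 45.4%) and Rrm2 (32.0% and 54.5%, on 96 and 24 UMIs in mitotic cells) had high shares. Hist1h2bc (7.20%, 4.72 to 10.5, and 3.14%, 1.63 to 5.42), Mcm4 (10.5% and 8.97%), Pcna (10.8% and 7.82%) and Hist1h1c (12.1% and 5.28%) had the lowest in WT cells. The shares of Hist1h4d (28.4%, 26.0 to 30.9, and 15.6%, 12.1 to 19.6) and Hist1h1e (18.2%, 16.6 to 19.98, and 8.87%, 7.38 to 10.5) were lower in the library labelled Otud1-/-, whereas those of Hist1h1b and Pclaf were not. Such a share also depends on how many cells were mitotic, so a lower share does not show weaker concentration in them. Mitotic cells were 5.08% and 1.81% of all thinned cells, and for Hist1h2bc the interval includes that share in both libraries.

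**Figure D5:**
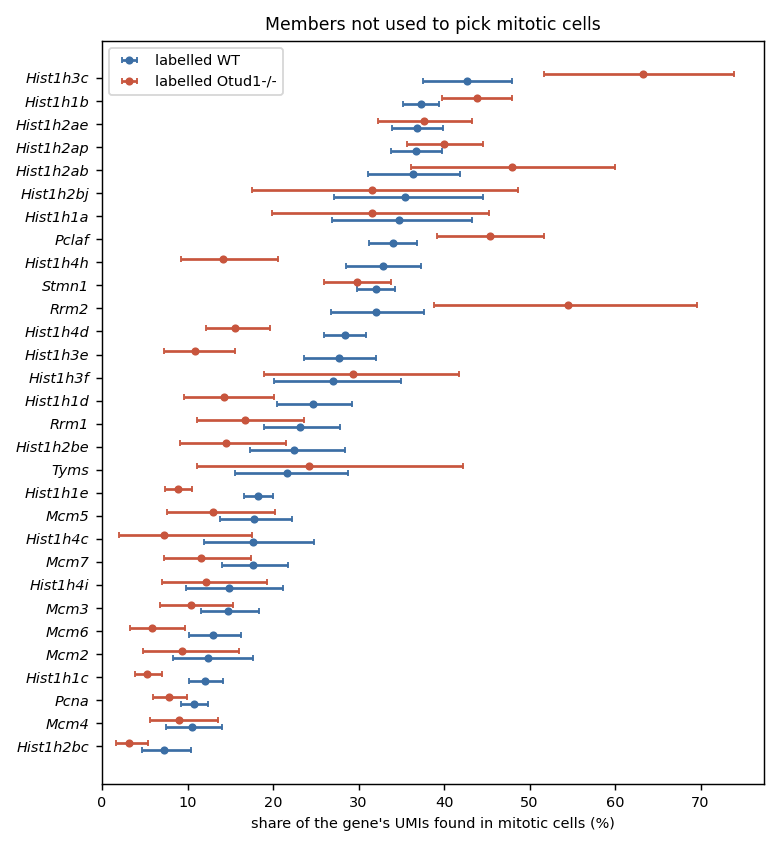
Share of each gene's UMIs that lay in mitotic cells after thinning (x axis, percent, exact 95% intervals) for members that were not used to call those cells and had at least 150 UMIs in both libraries together. Hist1h3c and Hist1h1b are at the top, and Hist1h2bc, at 7.20% and 3.14%, is at the bottom.

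The other genes of the pathway mostly differed by less than 1.5-fold over all kept cells. Of 53 other replication genes 24 were compared and 0 reached 1.5-fold, with a median log2 ratio of -0.23. The ligase Lig1 (0.667, 0.620 to 0.717) and Uhrf1, which maintains DNA methylation (0.670, 0.606 to 0.740), were lowest, and the licensing factor Cdt1 (1.11, 1.02 to 1.21) and Tipin (1.03, 0.957 to 1.11) highest. Of 80 other mitotic genes 18 were compared, with a median of -0.33. Nusap1, a spindle protein gene, was the only one lower by at least 1.5-fold (35.1 and 17.8 CPM, 0.508, 0.463 to 0.558), with Ncapg2 next (0.661, 0.596 to 0.733). The nuclear lamina gene Lmnb1 was the only one higher by as much (217.2 and 385.5 CPM, 1.77, 1.73 to 1.82), with Cks2 next (1.09, 1.05 to 1.13). Of 24 other G1/S regulators 12 were compared and 0 reached it, from Ccnd1 (0.740, 0.686 to 0.798) and Cks1b (0.788, 0.737 to 0.843) to Ccnd3 (1.11, 1.06 to 1.16) and Myc (1.14, 1.04 to 1.26). The CDK inhibitors compared, Cdkn1b (0.967, 0.930 to 1.005), Cdkn1a (1.08, 1.05 to 1.12) and Cdkn2d (1.18, 1.11 to 1.26), did not reach it either. Histones outside the Hist1h cluster had a median of -0.05 over 10 of 22 genes, with H1f0 (0.770, 0.695 to 0.852) and H2afx (0.886, 0.844 to 0.929) lowest and the replacement histones H3f3a (1.25, 1.23 to 1.26) and H3f3b (1.21, 1.20 to 1.22) highest.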

How the data were processed

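The authors deposited 1 matrix of unnormalised UMI counts for each library, per the file headers. Cell Ranger 5.0.0, Seurat 3.2.3 and the mm10 build are named per the submitters' processing notes, and Cell Ranger 6.0.1 per the file headers. The members and lists were chosen with earlier results of these data known.

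Barcodes under 200 detected genes or above 15% mitochondrial UMIs were dropped. A Scrublet simulation (scanpy 1.11.5) marked 0 doublets by its own threshold, so the highest scores at 0.8% per 1000 barcodes were removed (1355 and 450). Cells were clustered without integration on 2000 variable genes, with cell cycle genes left out (30 components, 20 neighbours, Leiden resolution 1). A cluster took the class with most fixed markers among its top 50 genes by CPM ratio (prior 1 CPM, detected in at least 25% of its cells), given at least 3 markers, a clear lead and, among its top 10, no rival class ahead, a rule set with results in view. Clusters are called by class with "-like".

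UMIs were summed per class and library and scaled to CPM. Ratios set the library labelled Otud1-/- over the WT library and have exact conditional binomial intervals, and log2 ratios use a prior of 0.5 CPM. Levels carry exact Poisson and shares exact Clopper-Pearson intervals. Each thinned cell was drawn to 1000 UMIs without replacement. Named genes were all non-histone members, the 10 highest Hist1h genes, the 3 highest and 3 lowest ratios per class, and the 2 highest and 2 lowest of each pathway list over all kept cells. The ratio, interval and thinning steps were tested on simulated data. Gene positions are from GENCODE M21 and promoters from RefSeq, with 50 of 54 Hist1h genes matched, most through older symbols. Alternatives covered scaling (TMM in edgeR 4.0.16, median of ratios), filters, doublets, clustering, thinning depth and the gene minimum.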

Additional observations from a re-analysis of the deposited data

Results flagged for a closer look

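The ratio of the summed S set, library labelled Otud1-/- over WT, lay above 1 in germinal centre B-like cells (1.05) and below 1 in B-like (0.858), T-like (0.852), dendritic-like (0.559), monocyte/macrophage-like (0.831) and neutrophil-like cells (0.718), with intervals that exclude 1 in each. The ratio of the summed Hist1h genes lay above 1 in germinal centre B-like (1.17), B-like (1.05) and NK-like cells (1.22) and below 1 in T-like (0.704), dendritic-like (0.637), monocyte/macrophage-like (0.545) and neutrophil-like cells (0.758). The germinal centre B-like direction depended on depth. The Hist1h genes were at 4206 CPM in WT and 2072 CPM in the other library below 10000 UMIs, and at 7136 and 7822 CPM from there on. All these ratios use CPM. In neutrophil-like cells other scalings raise every log2 ratio by 0.37 (TMM) or 0.45 (median of ratios), so both differences there depend on the scaling. The difference between classes was not tested, since each library is a single sample.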

How the results depend on the processing

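The mitotic share of cells was 1.97% in WT and 0.678% in the library labelled Otud1-/- when thinned to 500 UMIs, 9.74% and 3.06% at 2000 UMIs and 10.8% and 5.61% with no thinning. With at least 2 genes it was 8.78% and 2.99%, and with at least 4 genes 2.93% and 0.920%. Alternatives chosen after seeing the data gave 4.12% and 2.24% in cells with Y-linked and no Xist UMIs, 4.62% and 0.133% in cells of 2000 to 6000 UMIs, 10.1% and 9.91% at 10000 UMIs or more and 4.84% and 0.470% below. WT was higher under each of these, and at 10000 UMIs or more the intervals overlap. The germinal centre B-like share of mitotic cells was 27.2% in WT and 24.1% in the other library, and the B lineage share 31.0% and 25%, when clusters were made with cell cycle genes, since most mitotic cells then formed clusters without a name. Cells named from their own markers gave 10.7% and 33.0%, with a WT B lineage share of 78.4%. With doublets kept the WT germinal centre share was 51.9%.

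Over all kept cells the median log2 ratio of the members ranged from -0.40 to -0.20 over 7 alternatives. Members at least 1.5-fold lower and higher numbered 2 and 0 at a mean of at least 50 CPM, 14 and 2 with no minimum, and 2 and 0 with the WT makeup of classes. In germinal centre B-like cells the median became -0.0373 with doublets kept (4 lower) and -0.49 with clusters made with cell cycle genes (15 lower, 0 higher), and 1 was lower at a mean of at least 50 CPM. The mitotic set there was at 2314 CPM in the library labelled Otud1-/- with doublets kept, and at 2281 CPM in WT and 1560 CPM in the other with cell cycle genes in the clustering. The median in B-like cells turned to 0.0249 with TMM factors, 0.0283 with median of ratios and 0.0578 with cell cycle genes in the clustering, and was -0.27 with doublets kept. In NK-like cells it turned to -0.0617 without the cell with the most UMIs of each gene and -0.32 with cell cycle genes in the clustering. In T-like cells it was -0.69 at most 5% mitochondrial UMIs and -0.18 with cell cycle genes in the clustering. In neutrophil-like cells it was -0.0356 with median of ratios, which shifts every ratio there by 0.45 (0.37 with TMM; 0.15 in dendritic-like, 0.11 in NK-like and 0.10 in B-like cells with median of ratios), and -0.81 without each gene's top cell. The causes were not tested. The median stayed negative in all 8 alternatives in dendritic-like (-1.12 to -0.55) and monocyte/macrophage-like cells (-0.64 to -0.36). The number at least 1.5-fold lower ranged from 5 to 40 in dendritic-like, 1 to 28 in T-like, 2 to 31 in monocyte/macrophage-like, 2 to 16 in neutrophil-like, 0 to 16 in B-like and 0 to 3 in NK-like cells.

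No paired analysis was possible because each genotype has 1 library. Depth limits the rare classes: 0 of 72 plasma-like cells labelled Otud1-/- held at least 3 S-set genes, which allows up to 4.17%.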

Other observations

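Hist1h4m, an H4 gene that was chosen after its values were seen, had 5 UMIs in the kept WT cells and 32 in the library labelled Otud1-/-, a ratio of 6.49 (2.51 to 21.3). No cell held more than 1 of them, and 14 of the 32 were in B-like and 12 in germinal centre B-like cells. It shares 88.5% of its 90-base stretches with another gene, and the summed ratio of all H4 members over the same cells was 0.631, so the assignment of these UMIs to a copy is uncertain.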
